A study of Mus musculus with 12 samples.

Results

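Ccr8, Ccr9, Ccr7, Ccr4, Ccr6, Ccr10, Cxcr3, Cxcr4, Cxcr6 and S1pr1 encode receptors that guide lymphocytes between the blood, the thymus, the lymph nodes and other tissues. They are 10 of the 23284 genes measured by RNA sequencing in a mouse T cell leukemia line that received Notch1, Zmiz1 or both. They were picked by gene name as receptors of lymphocyte homing, and the list was drawn up because Ccr8, Ccr9 and Ccr7 differed between the vector groups. Values of those 3 genes are therefore given as a description with no test, while the other 7 receptors and the genes related to them were tested where their level allowed it.

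Chemokine receptors are G protein-coupled receptors that act mainly through Gi proteins, and a cell moves towards higher levels of the ligand. In the thymus, Ccr9 and its ligand Ccl25 draw progenitors in and retain developing T cells, and in the gut they draw T cells to the small intestine. Ccr7 brings T cells to the lymph node through Ccl19 and Ccl21, Cxcr4 holds lymphoid cells near sources of Cxcl12 in the bone marrow, and Ccr8, whose mouse ligands include Ccl1, marks Th2 and regulatory T cells. S1pr1 senses sphingosine 1-phosphate (S1P), a lipid that is high in blood and lymph, and lets T cells leave the thymus and lymph nodes.

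The 12 libraries formed 4 groups of 3. In Notch1+Zmiz1 libraries the cells of line 8946 carried a retroviral vector for Notch1 with the L1601P change plus one for Zmiz1. Notch1 libraries carried the Notch1 L1601P vector and the empty NGFR vector, Zmiz1 libraries the empty MigR1 vector and the Zmiz1 vector, and control libraries both empty vectors. Once cleaved, the Notch1 receptor enters the nucleus as a transcriptional activator, and Zmiz1 is a coactivator that works with it in T cells. All groups are cultures of a single leukemia line, were kept in RPMI medium with serum and were sorted for GFP, carried by the MigR1 vectors, and for NGFR. Groups follow the sample titles, because the cell line labels swap both single-vector groups (MigR1/Zmiz1 stands beside the title Notch1, and L1601P/NGFR beside the title Zmiz1). The deposited column headers went with the titles, and so did the vector genes, since Zmiz1 averaged 49.3, 0.212, 70.8 and 0.176 FPKM in Notch1+Zmiz1, Notch1, Zmiz1 and control libraries, and Notch1 averaged 35.6, 32.1, 2.1 and 1.89 FPKM. FPKM counts fragments relative to the length of the transcript and to all mapped fragments. The labels do not say if libraries of a group were grown or transduced apart, so p-values measure only the spread among these libraries, which may be technical.

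FPKM summed to 549098 to 606908 per library, and 14233 to 14554 genes were above 0. Zmiz1 replicate 2 stood apart, with the lowest relative depth (0.738, against up to 1.24) and a mean correlation of 0.942 with the other libraries, against 0.949 to 0.957. All 12 listed T cell markers were at 1 FPKM or more, summing to 5047 to 5270 FPKM in Notch1+Zmiz1, 5477 to 6183 in Notch1, 4592 to 4842 in Zmiz1 and 5146 to 5324 in control libraries. Of these, named after their values were seen, Cd8a rose in Notch1 against control, Lck and Cd3d fell in Zmiz1 against control and Cd2 rose in Notch1+Zmiz1 against Zmiz1. Over all genes, 5.49%, 2.11% and 3.86% were called in these comparisons, in that order. The calls of Lck, Cd3d and Cd2 were lost without any control library, among others. That of Cd8a held without any single library but was lost under quantile normalization. In a fit of the compared groups alone, none of these marker calls remained. The part of these differences in the receptor values was not tested. By contrast, no listed B cell, NK cell or fibroblast marker averaged 1 FPKM, and Ms4a1, Ncr1, Klrd1, Dcn and Col3a1 were listed at 0 in every library. The erythroid list summed to 1.79 to 4.79 FPKM, with Hbb-b1 at 0. Of 7 myeloid markers only Itgam averaged 1 FPKM, Elane was at 0, and the 7 summed to 59.2 to 61.8 FPKM in Notch1+Zmiz1, 51.2 to 58.4 in Notch1, 91.5 to 100.3 in Zmiz1 and 98.0 to 101.9 in control libraries.

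Of the 10 receptors, 5 averaged at least 1 FPKM over the 12 libraries, the level needed to enter the test. Cxcr4 was the most abundant, above 98.8% of all genes, followed by Ccr4, Ccr8, Ccr7 and Ccr9. Cxcr6 averaged 0.736 FPKM, and Ccr10, Ccr6, S1pr1 and Cxcr3 averaged under 0.2 FPKM. Ccr8, Ccr7 and Ccr9 had means over all libraries of 4.46, 4.19 and 3.92 FPKM. Their group means were less alike, from 0.243 to 13.3 FPKM for Ccr8, 3.09 to 6.26 FPKM for Ccr7 and 1.72 to 6.95 FPKM for Ccr9.

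**Figure D1:**
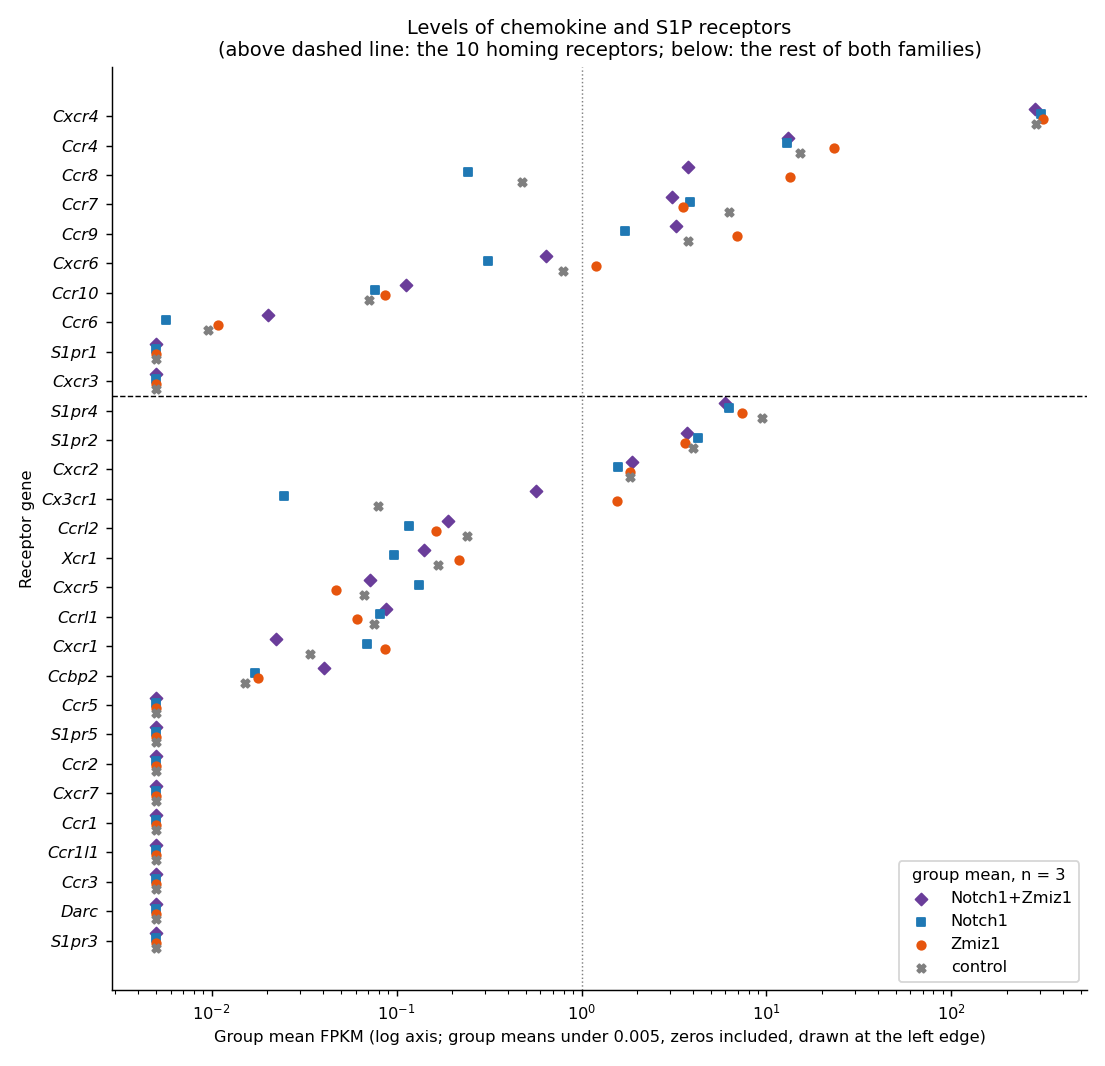
Group mean FPKM (horizontal log axis) of the 10 homing receptors, above the dashed line, and of the other chemokine and S1P receptors in the table, below it; symbols are means of 3 libraries and the dotted line marks 1 FPKM. Cxcr4 lies between 283.6 and 313.5 FPKM in every group, Ccr8 spreads from 0.243 to 13.3 FPKM, and Cxcr3 and S1pr1 lie at the left edge.

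Ccr8 passed the filter on low values only through its Zmiz1 and Notch1+Zmiz1 libraries, since every Notch1 and control library was under 1 FPKM. It had 3.80, 3.33 and 4.21 FPKM in Notch1+Zmiz1 libraries, 0.253, 0.227 and 0.249 FPKM in Notch1 libraries, 13.7, 15.1 and 11.3 FPKM in Zmiz1 libraries and 0.407, 0.427 and 0.599 FPKM in control libraries. No pair of groups overlapped, and the order was Zmiz1, Notch1+Zmiz1, control and Notch1. Ccr8, Ccr9 and Ccr7 were picked because they differed, so nothing is read from the separation of their groups, here or below. In bulk RNA, more cells with Ccr8 and more Ccr8 RNA per cell cannot be told apart. The mean in Zmiz1 libraries was 27.9 times that in control libraries (13.3 ± 1.92 against 0.478 ± 0.106 FPKM, SD, n = 3 each). Where Notch1 was present, the mean was 15.6 times as high with Zmiz1 as without it (3.78 ± 0.445 FPKM in Notch1+Zmiz1 against 0.243 ± 0.0141 FPKM in Notch1 libraries). Notch1 libraries had 0.509 times the Ccr8 mean of control libraries, and Notch1+Zmiz1 libraries had 0.283 times the mean of Zmiz1 libraries. Ccr8 values as low as those in Notch1 and control libraries rest on few fragments, whose number is not known. Ratios that use these low values are uncertain in size. The difference in log2(FPKM + 1) was 3.27 between Zmiz1 and control (SE 0.108) and 1.94 between Notch1+Zmiz1 and Notch1, which places the second 1.33 below the first. With a pseudocount of 0.1 FPKM instead of 1, which compresses low values less, these differences were 4.55 and 3.49, and that between Notch1 and control was -0.74 instead of -0.25. Without Zmiz1 replicate 2 the Ccr8 mean of Zmiz1 libraries was 12.5 FPKM. Zmiz1 mRNA was itself lower in Notch1+Zmiz1 than in Zmiz1 libraries, at 49.3 ± 1.66 against 70.8 ± 3.39 FPKM (SD, n = 3 each; difference in log2(FPKM + 1) of -0.51, limma adjusted p = 0.000312), and its part in the lower Ccr8 of Notch1+Zmiz1 libraries was not tested. That Zmiz1 difference held without any single library and missed the threshold under quantile normalization.

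The gene for Ccr8 lies on the plus strand of chromosome 9 of the mouse genome (GRCm38, equal to mm10; chr9:120092114-120094906). On its upstream side lies Cx3cr1, the fractalkine receptor, on the opposite strand and with its start 22.2 kb away. Both stretches of 250 bases before the RefSeq start are shown (GRCm38.p6, read 5′ to 3′ on the strand of the gene), because these neighbouring receptors were highest in the same libraries. They lie at chr9:120091883-120092132 (plus strand) and chr9:120068297-120068546 (minus strand). Capitals mark matches, on either strand, to the RBPJ core TGGGAA, which the DNA-binding partner of Notch reads, to AGATAA as read by factors of the GATA family, and to the E-box CANNTG of basic helix-loop-helix factors.
Ccr8: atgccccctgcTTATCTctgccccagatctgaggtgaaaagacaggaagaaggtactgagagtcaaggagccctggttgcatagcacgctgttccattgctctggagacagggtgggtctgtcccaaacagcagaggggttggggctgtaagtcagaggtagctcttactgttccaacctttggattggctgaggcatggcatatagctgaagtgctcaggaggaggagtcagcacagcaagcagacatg
Cx3cr1: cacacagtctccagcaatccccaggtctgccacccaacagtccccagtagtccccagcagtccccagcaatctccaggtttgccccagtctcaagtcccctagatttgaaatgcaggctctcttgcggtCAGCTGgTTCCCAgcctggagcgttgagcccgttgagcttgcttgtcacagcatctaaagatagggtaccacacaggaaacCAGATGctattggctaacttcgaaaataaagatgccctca
The Ccr8 stretch held 1 GATA match, starting at position -239 from the start. That of Cx3cr1 held an RBPJ core match at -114 and E-box matches at -121 and -40. Over 32851 RefSeq promoter stretches of the same length, 9.99% held the GATA letters, 21.6% the RBPJ core and 66.2% an E-box, and no binding was measured here.

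Cx3cr1 averaged under 1 FPKM and was not tested. It had 0.536, 0.605 and 0.565 FPKM in Notch1+Zmiz1 libraries, 0.0207, 0.0383 and 0.0149 FPKM in Notch1 libraries, 1.55, 1.72 and 1.39 FPKM in Zmiz1 libraries and 0.0863, 0.0411 and 0.111 FPKM in control libraries. No Notch1 library was as high as any control library, and the order of the groups was that of Ccr8. Values this low rest on few fragments, whose number is not known. Slc25a38, a mitochondrial glycine carrier gene starting 18.3 kb downstream of the Ccr8 start, was well expressed. It had 20.2, 18.1 and 18.3 FPKM in Notch1+Zmiz1 libraries, 13.9, 15.3 and 15.1 FPKM in Notch1 libraries, 22.8, 24.5 and 23.6 FPKM in Zmiz1 libraries and 16.3, 16.1 and 15.7 FPKM in control libraries. It rose in Zmiz1 against control (0.53 in log2(FPKM + 1), adjusted p = 0.0009) and in Notch1+Zmiz1 against Notch1 (0.33, adjusted p = 0.0174), and it fell in Notch1+Zmiz1 against Zmiz1 (-0.31, adjusted p = 0.0147). The last 2 of these calls each depended on single libraries. The rise against Notch1 was lost without Notch1 replicate 1 or Notch1+Zmiz1 replicate 1 or 3 (adjusted p of 0.0574 to 0.0837), and the fall against Zmiz1 without Notch1+Zmiz1 replicate 2 or 3 (0.077 to 0.0855). In a fit of the compared groups alone, their adjusted p-values were 0.114 and 0.103.

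Among the 15 table genes starting within 500 kb of Ccr8, 7 were tested, and 1 was called in each of the 4 comparisons that add or remove a single vector. Over all genes, 5.49% were called in Notch1 against control and 2.11% in Zmiz1 against control. The shares were 1.51% in Notch1+Zmiz1 against Notch1 and 3.86% in Notch1+Zmiz1 against Zmiz1. Slc25a38 was the neighbour called in the 3 comparisons for which its calls are given above. In Notch1 against control it was Eif1b, 400 kb away and named after its value was seen (log2 difference 0.50, adjusted p = 0.0317), a call lost without any 1 of 7 libraries (the 3 control libraries, Notch1 replicates 1 and 3, and Notch1+Zmiz1 replicates 2 and 3; adjusted p up to 0.123) and under quantile normalization.

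Ccr9 was higher in Zmiz1 and lower in Notch1 libraries than in control libraries. It had 3.46, 3.15 and 3.08 FPKM in Notch1+Zmiz1 libraries, 1.70, 1.77 and 1.68 FPKM in Notch1 libraries, 6.56, 8.67 and 5.61 FPKM in Zmiz1 libraries and 3.96, 3.86 and 3.55 FPKM in control libraries. No pair of groups overlapped, although the highest Notch1+Zmiz1 library came close to the lowest control library. Zmiz1 libraries had 1.83 times the control mean, and Notch1+Zmiz1 libraries had 1.88 times the Notch1 mean (differences in log2(FPKM + 1) of 0.71 and 0.64, SE 0.116). Notch1 libraries had 0.453 times the control mean, and Notch1+Zmiz1 libraries had 0.465 times the Zmiz1 mean (-0.82 and -0.89). The Zmiz1 difference with Notch1 minus that without it was -0.08, with an SE of 0.164. With both vectors, Ccr9 averaged 3.23 ± 0.203 FPKM, against 3.79 ± 0.213 FPKM in control libraries (SD, n = 3 each). Without Zmiz1 replicate 2, the Zmiz1 mean was 6.09 instead of 6.95 FPKM.

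Ccr9 lies on the plus strand of chromosome 9, and its GENCODE gene (chr9:123678439-123784330) spans Lztfl1, which is read from the opposite strand (chr9:123694416-123717697) and encodes a ciliary trafficking protein. The RefSeq start of Ccr9 lies beyond Lztfl1, with 49.5 kb between that start and the start of Lztfl1. Which of these spans the deposited values used is not known. The libraries keep no strand, so fragments from any shared stretch could not be assigned to one gene or the other. Whether the values of the pair are independent was not tested. Their upstream stretches are shown because the pair had the same order of group means (Zmiz1, control, Notch1+Zmiz1 and Notch1), at chr9:123766961-123767210 (plus strand) and chr9:123717626-123717875 (minus strand), with capitals as above.
Ccr9: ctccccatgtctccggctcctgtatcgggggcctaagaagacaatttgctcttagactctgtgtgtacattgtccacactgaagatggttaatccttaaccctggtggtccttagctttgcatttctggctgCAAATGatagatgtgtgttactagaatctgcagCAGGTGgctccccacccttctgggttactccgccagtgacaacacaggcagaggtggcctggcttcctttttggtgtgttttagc
Lztfl1: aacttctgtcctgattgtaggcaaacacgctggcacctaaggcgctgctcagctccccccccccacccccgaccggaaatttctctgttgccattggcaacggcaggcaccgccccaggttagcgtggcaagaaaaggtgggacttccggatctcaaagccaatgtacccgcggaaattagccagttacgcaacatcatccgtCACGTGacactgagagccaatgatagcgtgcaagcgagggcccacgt
E-box letters began at positions -118 and -85 of Ccr9 and at -47 of Lztfl1.

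Lztfl1 had 31.7, 24.9 and 27.1 FPKM in Notch1+Zmiz1 libraries, 20.4, 14.3 and 16.6 FPKM in Notch1 libraries, 51.1, 53.1 and 42.7 FPKM in Zmiz1 libraries and 34.4, 30.4 and 29.4 FPKM in control libraries. It was the gene called in each single-vector comparison among the 5 tested of 14 that start within 500 kb of Ccr9. The shares called over all genes in these comparisons are those given for the Ccr8 neighbours. Lztfl1 fell in Notch1 against control (-0.85 in log2(FPKM + 1), adjusted p = 0.00383) and in Notch1+Zmiz1 against Zmiz1 (-0.79, adjusted p = 0.00761), and both falls held without any single library. It rose in Zmiz1 against control (0.62, adjusted p = 0.0413) and in Notch1+Zmiz1 against Notch1 (0.68, adjusted p = 0.0319), and both rises depended on single libraries. The first rise was lost without any 1 of 8 libraries (the 3 control libraries, Zmiz1 replicate 1 or 2, Notch1 replicate 3, and Notch1+Zmiz1 replicate 2 or 3; adjusted p of 0.0565 to 0.181). The second was lost without any 1 of 7 (control replicate 2 or 3, Notch1 replicate 2 or 3, and each Notch1+Zmiz1 library; 0.0541 to 0.137). Both were also lost in a fit of the compared groups alone (0.0986 and 0.14), and the first with no filter (0.0592) or quantile normalization (0.0572).

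Slc6a20a, an amino acid transporter gene starting 88.3 kb upstream of the RefSeq start of Ccr9, stayed under the filter. It had 0.219, 0.134 and 0.181 FPKM in Notch1+Zmiz1 libraries, 0.0597, 0.0639 and 0 FPKM in Notch1 libraries, 0.571, 0.566 and 0.613 FPKM in Zmiz1 libraries and 0.168, 0.120 and 0.107 FPKM in control libraries, with the Zmiz1 libraries highest and the Notch1 libraries lowest. Cxcr6, the receptor for Cxcl16 on tissue-resident T cells, starts 39.3 kb downstream of the RefSeq start of Ccr9 and was also under the filter. Cxcr6 had 0.949, 0.402 and 0.580 FPKM in Notch1+Zmiz1 libraries, 0.365, 0.352 and 0.218 FPKM in Notch1 libraries, 1.31, 1.38 and 0.893 FPKM in Zmiz1 libraries and 0.822, 0.945 and 0.622 FPKM in control libraries. Its Notch1 libraries lay below all others, whereas Zmiz1 and control libraries overlapped. Ccr1, Ccr1l1 and Ccr3, other receptor genes of chromosome 9, were listed at 0 in all 12 libraries.

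**Figure D2:**
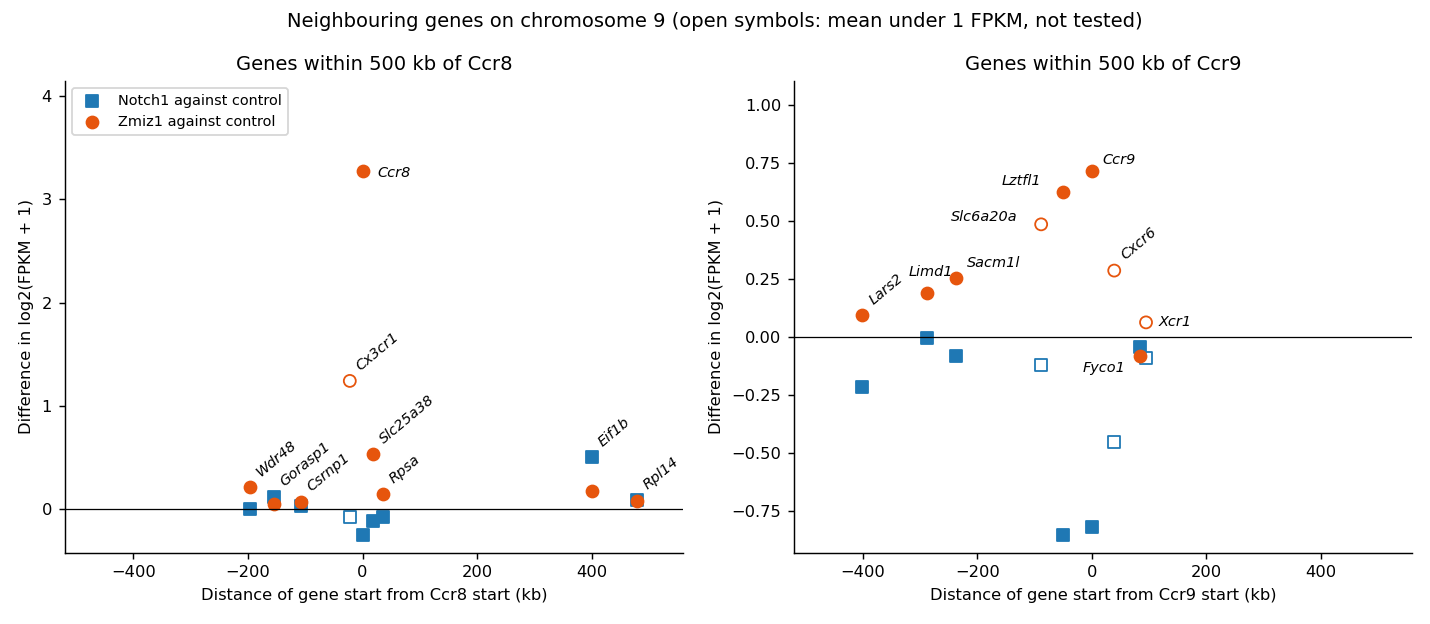
Difference in log2(FPKM + 1), vertical axis, for genes averaging at least 0.1 FPKM against the distance of their start from that of Ccr8 (left) or Ccr9 (right), in kb; squares are Notch1 against control and circles Zmiz1 against control. Ccr8 stands at 3.27 in Zmiz1 against control with Cx3cr1 and Slc25a38 beside it, and Ccr9 and Lztfl1 lie together above 0 for Zmiz1 and below 0 for Notch1.

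Ccr7 was highest in control libraries. It had 3.23, 2.94 and 3.10 FPKM in Notch1+Zmiz1 libraries, 3.70, 3.84 and 4.06 FPKM in Notch1 libraries, 3.64, 3.63 and 3.34 FPKM in Zmiz1 libraries and 6.62, 5.98 and 6.17 FPKM in control libraries. The control libraries lay above the other 9, and the 3 vector groups lay close to each other without overlapping. Relative to control libraries (6.26 ± 0.330 FPKM), the mean was 0.618 times as high in Notch1 (3.87 ± 0.178 FPKM), 0.565 times in Zmiz1 (3.53 ± 0.168 FPKM) and 0.493 times in Notch1+Zmiz1 libraries (3.09 ± 0.146 FPKM; SD, n = 3 each). In log2(FPKM + 1), the Zmiz1 step was -0.68 against control and -0.25 on top of Notch1 (SE 0.0631), so the second was smaller in size by 0.43. Ccr7 is on the minus strand of chromosome 11 (chr11:99144196-99155077), where 12 of 43 genes within 500 kb were tested. One of them was called in Notch1 against control, beside 5.49% over all genes (Cdc6, a replication licensing factor named after its value was seen, 0.25, adjusted p = 0.0206). None was called in the other 3 single-vector comparisons, where 1 in all had an unadjusted p under 0.05. The Cdc6 call was lost without any control library or without Notch1 replicate 2 (adjusted p up to 0.0897).

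**Figure D3:**
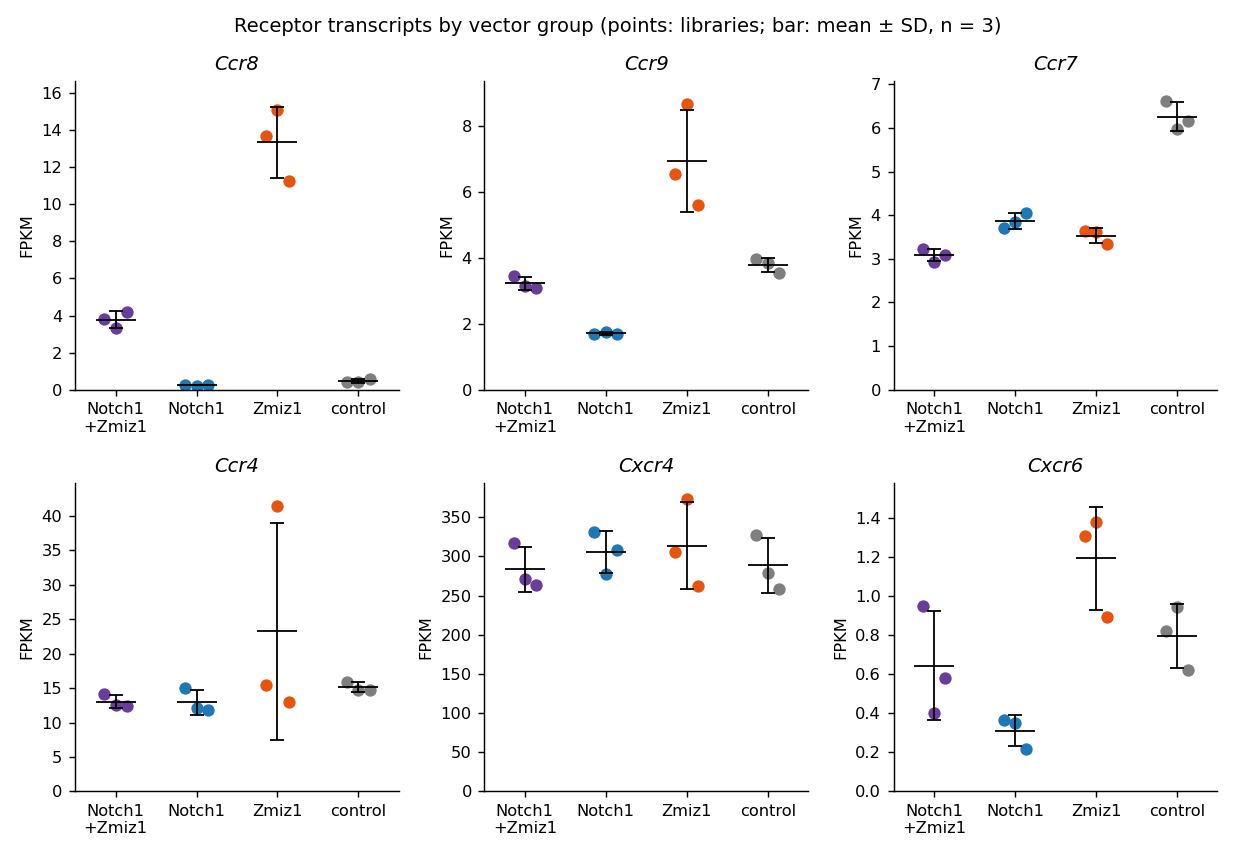
FPKM (vertical axes, from 0) of 6 receptors in the 4 vector groups; points are libraries and bars the mean ± SD (n = 3). Ccr8 and Ccr9 are highest in Zmiz1 libraries, Ccr7 is highest in control libraries, Ccr4 in Zmiz1 libraries is drawn up by 1 library at 41.4 FPKM, and the groups of Cxcr4 overlap.

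Ccr4 and Cxcr4 were the only receptors not chosen for a difference that entered the test, and neither was called in any comparison. Ccr4, the receptor for Ccl17 and Ccl22 on Th2, regulatory and skin-homing T cells, had 14.1, 12.6 and 12.4 FPKM in Notch1+Zmiz1 libraries, 15.0, 12.1 and 11.8 FPKM in Notch1 libraries, 15.4, 41.4 and 13.0 FPKM in Zmiz1 libraries and 16.0, 14.8 and 14.8 FPKM in control libraries. Zmiz1 replicate 2, the library that stood apart, was far above the rest of its group, and without it the Zmiz1 mean was 14.2 FPKM, below the control mean of 15.2 FPKM. The difference between Zmiz1 and control was 0.40 in log2(FPKM + 1) (SE 0.318, adjusted p = 0.666) with that library and -0.09 (adjusted p = 0.914) without it. Notch1+Zmiz1 against Zmiz1 was -0.61 (adjusted p = 0.393) with it and -0.11 (adjusted p = 0.756) without it, and Notch1 against control was -0.22 (adjusted p = 0.779).

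Cxcr4 had 316.6, 271.1 and 263.3 FPKM in Notch1+Zmiz1 libraries, 330.6, 277.5 and 308 FPKM in Notch1 libraries, 305.3, 372.9 and 262.5 FPKM in Zmiz1 libraries and 327.8, 279.4 and 258.8 FPKM in control libraries. Every pair of groups overlapped. Its differences in log2(FPKM + 1), each with an SE of 0.134, were 0.08 in Notch1 against control (adjusted p = 0.801), 0.11 in Zmiz1 against control (adjusted p = 0.79), -0.11 in Notch1+Zmiz1 against Notch1 (adjusted p = 0.967) and -0.13 in Notch1+Zmiz1 against Zmiz1 (adjusted p = 0.675). A missed threshold does not show that Cxcr4 was equal between groups.

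Over all 10152 genes tested, 5.49% were called in Notch1 against control, 2.11% in Zmiz1 against control, 1.51% in Notch1+Zmiz1 against Notch1, 3.86% in Notch1+Zmiz1 against Zmiz1, 6.46% in Notch1+Zmiz1 against control and 0.069% in the interaction of both vectors. Of the 2 tested receptors that were not chosen for a difference, 0 were called by limma in each of these, and 0 had an unadjusted p under 0.05. Ccr8, Ccr9 and Ccr7 were picked from the same comparisons, so nothing is read from their place among the called genes or from the separation of their groups.

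The other 4 receptors were at or near 0. Ccr10, a receptor of skin-homing T cells, lay between 0.0395 and 0.170 FPKM in all 12 libraries with overlapping groups. Ccr6, a receptor of Th17 and gut-homing cells, was above 0 in 4 libraries and reached 0.0602 FPKM. Cxcr3, the receptor of Th1 cells for interferon-induced chemokines, was listed at 0 in every library. S1pr1 was listed at 0 in 11 libraries and at 0.0107 FPKM in control replicate 1, so the main egress receptor of T cells was not measurable in any vector group at this depth.

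Other S1P receptors were present. S1pr4, a lymphocyte S1P receptor coupled to Gi and G12/13, had 6.07, 5.83 and 5.95 FPKM in Notch1+Zmiz1 libraries, 6.24, 6.28 and 6.27 FPKM in Notch1 libraries, 8.16, 6.36 and 7.54 FPKM in Zmiz1 libraries and 9.85, 8.92 and 9.53 FPKM in control libraries. Every control library lay above the other 9. S1pr4 fell in Notch1 against control (-0.52 in log2(FPKM + 1), SE 0.0762, adjusted p = 0.00249) and in Notch1+Zmiz1 against control (-0.59, adjusted p = 0.000959), under every alternative tried. In Zmiz1 against control it did not pass in the main fit (-0.33, adjusted p = 0.0593) and passed without Zmiz1 replicate 1 (0.032). In Notch1+Zmiz1 against Zmiz1 it did not pass in the main fit (-0.26, adjusted p = 0.101) and passed without Zmiz1 replicate 2 (0.0072). With all libraries and a block for the replicate number, S1pr4 passed in both comparisons (limma adjusted p of 0.0299 and 0.045). Itgam, which made up nearly all of the myeloid marker sum, also differed between these groups. It averaged 59.9, 55.7, 96.2 and 99.5 FPKM in Notch1+Zmiz1, Notch1, Zmiz1 and control libraries. Which cells carry Itgam, and whether they bear on S1pr4, was not tested. S1pr2, which couples to G12/13 and opposes migration, averaged 3.71, 4.28, 3.61 and 4.02 FPKM in the same order and was not called. S1pr3 was listed at 0 in every library and S1pr5 did not exceed 0.0134 FPKM.

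Of 10 listed genes for making, breaking down or exporting S1P, 4 were tested. Only Ppap2b, a lipid phosphate phosphatase that removes the phosphate from extracellular S1P and related lipids, was called in the single-vector comparisons. Ppap2b had 3.19, 3.58 and 3.72 FPKM in Notch1+Zmiz1 libraries, 1.22, 1.30 and 1.40 FPKM in Notch1 libraries, 5.83, 9.83 and 5.60 FPKM in Zmiz1 libraries and 1.33, 1.33 and 1.79 FPKM in control libraries. Zmiz1 libraries were highest and Notch1+Zmiz1 libraries came next, while Notch1 and control libraries overlapped. Ppap2b rose in Zmiz1 against control (1.67 in log2(FPKM + 1), adjusted p = 0.000369), with every library left out in turn, and its Zmiz1 mean was 5.72 instead of 7.09 FPKM without Zmiz1 replicate 2. It rose in Notch1+Zmiz1 against Notch1 (0.96, adjusted p = 0.0153) and fell in Notch1+Zmiz1 against Zmiz1 (-0.81, adjusted p = 0.0209). The rise against Notch1 was lost without Notch1 replicate 1 or 2 or any Notch1+Zmiz1 library (adjusted p of 0.0508 to 0.0793), and the fall without any Notch1+Zmiz1 library (0.0673 to 0.0828) or in a fit of the compared groups alone (0.15). Its relative Ppap2a, under the filter, had 1.12, 1.38 and 0.773 FPKM in Notch1+Zmiz1, 0.535, 0.766 and 0.529 FPKM in Notch1, 1.59, 2.06 and 0.928 FPKM in Zmiz1 and 0.360, 0.602 and 0.429 FPKM in control libraries.

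Of the chemokine ligands of these receptors, 8 of 17 were listed at 0 in every library, Ccl19 and Cxcl12 among them, and 2 were tested. Ccl1, a ligand of Ccr8, was at 0 in 10 libraries and at 0.0948 and 0.0998 FPKM in the other 2, both controls. Ccl25, the ligand of Ccr9, averaged 3.58 FPKM in Notch1+Zmiz1, 3.92 in Notch1, 2.77 in Zmiz1 and 3.77 in control libraries and was not called in the fit of all libraries (Zmiz1 against control -0.34, adjusted p = 0.143); without Notch1 replicate 3 the adjusted p was 0.0477. Ccl27a, a ligand of Ccr10, had 1.30, 1.32 and 1.89 FPKM in Notch1+Zmiz1 libraries, 2.04, 2.45 and 1.73 FPKM in Notch1 libraries, 0.585, 0.335 and 0.540 FPKM in Zmiz1 libraries and 1.71, 1.60 and 1.49 FPKM in control libraries. Its Zmiz1 libraries lay below all others. Ccl27a fell in Zmiz1 against control (-0.81 in log2(FPKM + 1), adjusted p = 0.00713) and rose in Notch1+Zmiz1 against Zmiz1 (0.75, adjusted p = 0.00621), and both calls held in every alternative in which it was tested.

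Of 35 listed signaling genes (Gi subunits, arrestins, GRK kinases, RGS proteins, adhesion and cytoskeletal effectors), 27 were tested. None was called by limma in Zmiz1 against control or in Notch1+Zmiz1 against Notch1 (5 and 4 had an unadjusted p under 0.05), 2 fell in Notch1 against control (beside 5.49% called over all genes) and 1 fell in Notch1+Zmiz1 against Zmiz1 (beside 3.86%). Without Zmiz1 replicate 2, 4 were called in Notch1 against control, 1 in Notch1+Zmiz1 against Notch1 and 0 in Notch1+Zmiz1 against Zmiz1. Gnai3, an inhibitory G protein subunit, averaged 411.3 FPKM in Notch1+Zmiz1, 287.0 in Notch1, 536.2 in Zmiz1 and 444.6 in control libraries and fell in Notch1 against control (-0.63, adjusted p = 0.0383). That call was lost without any 1 of 8 libraries (the 3 control libraries, Zmiz1 replicate 3, Notch1 replicate 2 or 3, Notch1+Zmiz1 replicate 2 or 3; adjusted p of 0.0562 to 0.141) and with no filter (0.0616). Stk4, a kinase of the Hippo pathway that acts in T cell adhesion and egress, averaged 147.3 FPKM in Notch1+Zmiz1, 130.8 in Notch1, 185.1 in Zmiz1 and 165.4 in control libraries. It fell in Notch1 against control (-0.34, adjusted p = 0.016) and in Notch1+Zmiz1 against Zmiz1 (-0.33, adjusted p = 0.0242). The first Stk4 call was lost without any control library (0.0541 to 0.0677), the second without Zmiz1 replicate 1 or 2 or any Notch1+Zmiz1 library (0.059 to 0.107), and each in a fit of the compared groups alone (0.0689 and 0.0533).

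Of 7 tested adhesion partners of homing, 1 rose and 1 fell in Notch1 against control, and 2 fell in Notch1+Zmiz1 against control, beside 5.49% and 6.46% called over all genes. Itga4, the alpha 4 integrin that pairs with Itgb7 for gut homing, averaged 29.3 FPKM in Notch1+Zmiz1, 26.8 in Notch1, 34.8 in Zmiz1 and 42.5 in control libraries. It fell in Notch1 against control (-0.66, adjusted p = 0.0178), not without control replicate 1 or 2 or Notch1 replicate 2 or 3 (0.0607 to 0.0753). Itga4 also fell in Notch1+Zmiz1 against control (-0.52, adjusted p = 0.0442), a call lost without any 1 of 8 libraries (the 3 control and 3 Notch1+Zmiz1 libraries, Zmiz1 replicate 3 and Notch1 replicate 2; 0.0628 to 0.164) and with no filter (0.0659). Itgb7, named after its value was seen, averaged 3.04, 4.22, 3.61 and 4.76 FPKM in Notch1+Zmiz1, Notch1, Zmiz1 and control libraries and fell in Notch1+Zmiz1 against control (-0.51, adjusted p = 0.00505), also without any single library. Itgal, the alpha chain of LFA-1, averaged 58.3, 64.2, 48.3 and 50.2 FPKM in that order and rose in Notch1 against control (0.34, adjusted p = 0.0358). The Itgal call was lost without any control library, Notch1 replicate 1 or 2 or Notch1+Zmiz1 replicate 2 (0.0582 to 0.123), and under median ratio scaling, quantile normalization or a fit of the compared groups alone (0.0507 to 0.0659). Cd69, which binds S1pr1 and holds it inside the cell, stayed under 0.3 FPKM.

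**Figure D4:**
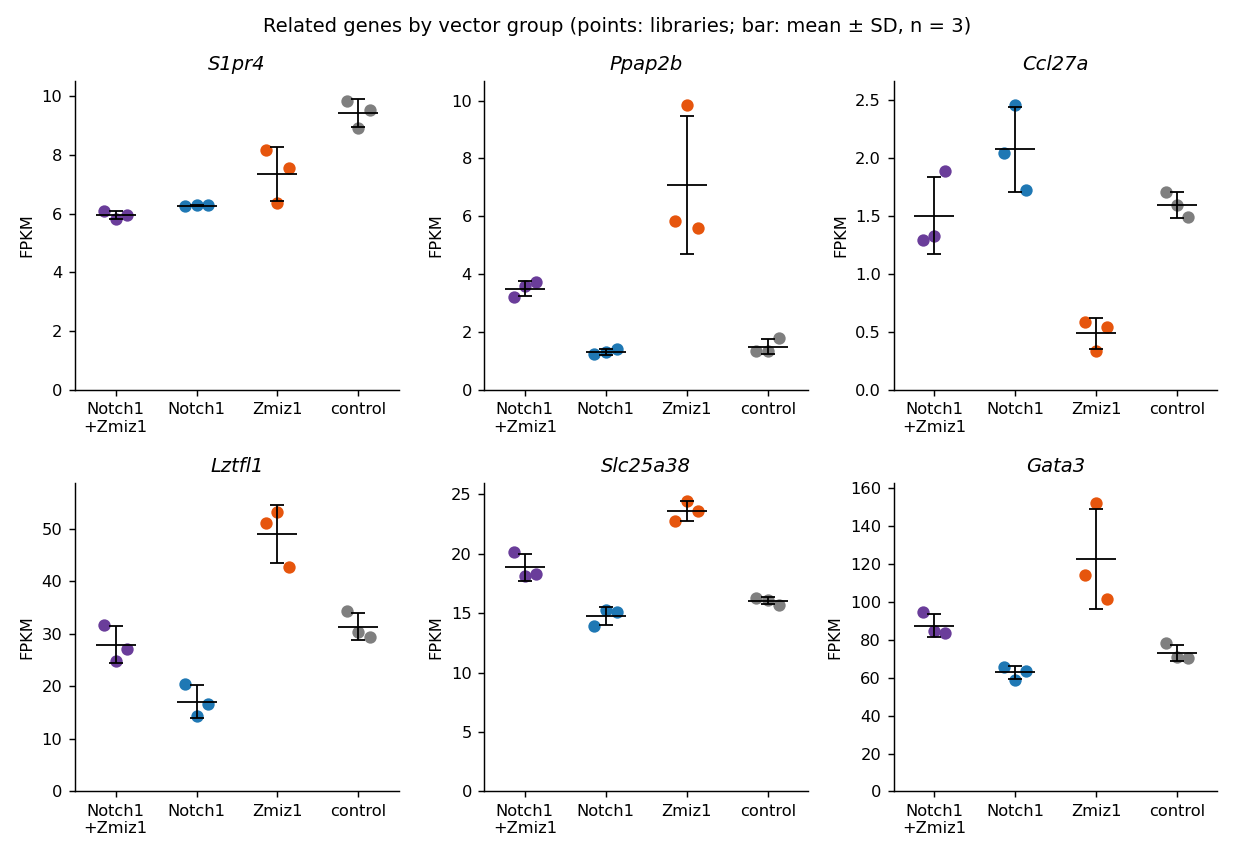
FPKM (vertical axes, from 0) of 6 genes related to the receptors in the 4 vector groups; points are libraries and bars the mean ± SD (n = 3). S1pr4 is highest in control libraries, Ppap2b, Lztfl1, Slc25a38 and Gata3 are highest in Zmiz1 libraries, and Ccl27a is lowest there.

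Of 20 transcription factors known to act on homing receptors, 19 were tested. One rose and 1 fell in Notch1 against control (beside 5.49% called over all genes), and 1 rose in Zmiz1 against control (beside 2.11%). Another 1 fell in Notch1+Zmiz1 against Notch1 (beside 1.51%), and 1 rose in Notch1+Zmiz1 against Zmiz1 (beside 3.86%). Gata3, the Th2 and T lineage factor, had 94.7, 84.5 and 83.5 FPKM in Notch1+Zmiz1 libraries, 65.6, 59.0 and 63.8 FPKM in Notch1 libraries, 114.4, 152.0 and 101.6 FPKM in Zmiz1 libraries and 78.2, 71.1 and 70.2 FPKM in control libraries, in the order of Ccr8. It rose in Zmiz1 against control (0.72 in log2(FPKM + 1), adjusted p = 0.015) and did not pass in Notch1+Zmiz1 against Notch1 (0.47, adjusted p = 0.125) or Notch1+Zmiz1 against Zmiz1 (-0.46, adjusted p = 0.0733), although the comparison with Notch1 passed without Zmiz1 replicate 2 (0.00886) and that with Zmiz1 without Zmiz1 replicate 3 (0.0268). The Gata3 call was lost without control replicate 2 or 3 (0.0746 and 0.0822) and in a fit of the compared groups alone (0.157), and the Zmiz1 mean was 108.0 instead of 122.6 FPKM without Zmiz1 replicate 2. The 5 Th2 markers summed to 83.5 to 94.8 FPKM in Notch1+Zmiz1, 59.1 to 65.7 in Notch1, 101.6 to 152.0 in Zmiz1 and 70.3 to 78.2 in control libraries. Gata3 made up nearly all of that sum, was the only 1 of the 5 to average 1 FPKM, and Il13 was at 0 in every library; the part of such cells in the Ccr8 values was not tested.

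Klf2, which drives S1pr1 in T cells, averaged 3.30 ± 0.0369 FPKM in Notch1+Zmiz1 libraries and 2.30 ± 0.134 FPKM in Zmiz1 libraries (SD, n = 3 each) and rose in that comparison (0.38, adjusted p = 0.0202). The Klf2 call was lost without Zmiz1 replicate 3 or any Notch1+Zmiz1 library (0.0584 to 0.0842) and under quantile normalization (0.0563). Irf4 averaged 2.01, 3.34, 1.89 and 2.12 FPKM in Notch1+Zmiz1, Notch1, Zmiz1 and control libraries; it rose in Notch1 against control (0.48, adjusted p = 0.0361) and fell in Notch1+Zmiz1 against Notch1 (-0.53, adjusted p = 0.0488). Batf, a partner of Irf4 in effector T cells, averaged 1.43, 1.00, 2.12 and 1.79 FPKM and fell in Notch1 against control (-0.48, adjusted p = 0.0461). The first Irf4 call was lost without any 1 library of the control, Notch1 or Notch1+Zmiz1 groups (0.0537 to 0.122), and the second Irf4 call and the Batf call without any 1 of these or Zmiz1 replicate 1 (up to 0.18 and 0.162). With no filter none of the 3 calls remained (0.0502, 0.0632 and 0.0532), and the second Irf4 call was lost as well with a pseudocount of 0.1 or with median ratio or quantile scaling (0.0534 to 0.0626). Foxo1, Id2 and Id3 were not called in the main fit. Without Zmiz1 replicate 2, Id3 fell in Notch1 against control (-0.47, adjusted p = 0.0131) and in Notch1+Zmiz1 against control (-0.49, adjusted p = 0.00864). Id2 rose in Notch1+Zmiz1 against control (0.40, adjusted p = 0.0184) without that library. In Notch1+Zmiz1 against control, a limma fit of the compared groups alone also called Id3 (adjusted p = 0.0015) and Id2 (0.0115). With a block for the replicate number, Id2 passed there too (0.0263).

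Over all the related lists, 72 of the 126 genes in the table were tested. Called were 8 in Notch1 against control (11.1%), 5 in Zmiz1 against control (6.94%), 4 in Notch1+Zmiz1 against Notch1 (5.56%), 6 in Notch1+Zmiz1 against Zmiz1 (8.33%), 4 in Notch1+Zmiz1 against control (5.56%, below the 6.46% over all genes) and 0 in the interaction (6 with an unadjusted limma p under 0.05), beside the shares over all genes given above. The lists were compiled with results of these data known, so nothing is read from a share above or below that of all genes. The 8 became 2 to 5 without any control library, any Notch1 library or Notch1+Zmiz1 replicate 2 or 3, and 12 without Zmiz1 replicate 2. The 5 became 3 without control replicate 2 or 3. The 4 in Notch1+Zmiz1 against Notch1 became 0 to 2 without control replicate 2 or 3, any Notch1 library or any Notch1+Zmiz1 library, and 7 without Zmiz1 replicate 2. The 6 became 2 or 3 without any Notch1+Zmiz1 library. The 4 in Notch1+Zmiz1 against control became 2 without control replicate 2 or Notch1+Zmiz1 replicate 3 and 10 without Zmiz1 replicate 2. A filter at a mean of 5 FPKM, which leaves fewer genes, gave 3, 2 and 3 in Zmiz1 against control, Notch1+Zmiz1 against Notch1 and Notch1+Zmiz1 against Zmiz1. A fit of the compared groups alone gave 3 in Zmiz1 against control, 3 in Notch1+Zmiz1 against Zmiz1 and 13 in Notch1+Zmiz1 against control. Of 15 other chemokine receptors in the table, Cxcr2 was the only one tested (1.44 to 2.39 FPKM, not called), and 12 stayed under 0.3 FPKM in every library.

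The genes whose levels followed each receptor most closely over the 12 libraries were ranked by Pearson correlation of log2(FPKM + 1), as a description, since the libraries share groups. For Ccr8 they were Wfs1 (0.987), Prkaa2 (0.981), Ppap2b (0.980), Ctsl (0.978) and Tmem158 (0.972). Wfs1, a membrane protein of the endoplasmic reticulum, averaged 2.97, 0.393, 6.43 and 0.666 FPKM in Notch1+Zmiz1, Notch1, Zmiz1 and control libraries, and Ctsl, the protease cathepsin L, averaged 807.1, 582.5, 1074 and 624.4 FPKM. For Ccr9 they were Lcp2 (0.981), Kctd12 (0.977), Shroom2 (0.974), Lztfl1 (0.967) and Vti1a (0.962). Lcp2, the T cell receptor adaptor SLP-76, averaged 167.9, 150.3, 227.2 and 188.0 FPKM, and Kctd12 averaged 7.57, 3.88, 14.2 and 7.48 FPKM. For Ccr7 they were Ms4a6b (0.965), Rapgef4 (0.941), Tmem231 (0.933), Suox (0.932) and H2-Eb2 (0.932). Ms4a6b averaged 3.51, 4.38, 4.22 and 6.54 FPKM and H2-Eb2, a class II histocompatibility gene, 1.43, 2.05, 2.20 and 3.38 FPKM, both highest in control libraries as Ccr7 was.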

How the data were processed

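RNA of 12 samples of the 8946 line was extracted from sorted cells and made into libraries with an unstranded TruSeq mRNA v2 kit, per the labels' protocols. The deposited values are FPKM, 1 per gene symbol and library, per the file headers. The authors aligned to mm10 and used Cuffdiff 2.1.1 with Cufflinks, TopHat2 2.0.9 with Bowtie2 2.1.0.0, and FastQC 0.10.0, per the submitters' processing notes, which list names without order or settings. No read totals are held, so depth was only estimated, from steps between low values, and precision near 0 FPKM is not known.

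Deposited values entered the fit as log2(FPKM + 1) for the 10152 of 23284 genes whose mean reached 1 FPKM. All 4 groups were fitted in limma 3.58.1 (R 4.3.3, trend on intensity, two-sided tests), with Benjamini-Hochberg adjustment over all tested genes and a threshold of 0.05; "called", "rose" and "fell" refer to it, and adjusted p-values are from it. An exact permutation test of 3 against 3 libraries could not reach this threshold. Members, lists and tests were chosen with earlier results of these data known. Named genes were the members, the listed genes called in a single-vector comparison (up to 5 a list), Ppap2b, Klf2, Foxo1, Cd69, Ccl1, Ccl25, Ccl19, Cxcl12, Gata3, Id2 and Id3, the vector genes, and the 5 genes most like Ccr8, Ccr9 and Ccr7 (small noncoding RNAs and predicted genes passed over); exceptions are marked where they stand, and some genes of the lists are not reported here. Positions are from GENCODE M21 (GRCm38), matched by symbol, and upstream sequences from RefSeq GRCm38.p6, which held entries for 7 of the 10 members. Distances from Ccr9 were measured from its RefSeq start. Alternatives were quantile normalization, median ratio scaling, a pseudocount of 0.1, a filter at 5 FPKM or none, a block for the replicate number, a fit of the compared groups alone, robust variances and each library left out in turn. Python 3.11.15 and matplotlib 3.10.9 drew the figures.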

Additional observations from a re-analysis of the deposited data

How the results depend on the processing

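Directions of Ccr8, Ccr9 and Ccr7 held in all their alternatives, and no called value reversed. Numbers of called genes moved more. Called genes numbered 557 in Notch1 against control (272 without control replicate 2 to 989 without Zmiz1 replicate 2), 214 in Zmiz1 against control (74 without control replicate 3 to 241 without Notch1 replicate 3), 153 in Notch1+Zmiz1 against Notch1 (75 without Notch1+Zmiz1 replicate 1 to 306 without Zmiz1 replicate 2), 392 in Notch1+Zmiz1 against Zmiz1 (184 without Notch1+Zmiz1 replicate 3 to 505 without Notch1 replicate 3) and 656 in Notch1+Zmiz1 against control (339 without control replicate 2 to 1090 without Zmiz1 replicate 2). A filter at a mean of 5 FPKM, which tests fewer genes, gave 121 in Zmiz1 against control and 101 in Notch1+Zmiz1 against Notch1. A fit of the compared groups alone, with fewer libraries to estimate the spread, gave 49 in Zmiz1 against control and 155 in Notch1+Zmiz1 against Zmiz1, but 1386 in Notch1+Zmiz1 against control, where the cause was not tested. The interaction had 7 calls, and 3 with a pseudocount of 0.1, 18 with no filter, 3 with the filter at 5 FPKM and 4 with quantile normalization; the cause was not tested.

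Replicate numbers are shared between groups, but the deviations of same-numbered libraries were correlated above 0.1 in 6 of 18 same-numbered pairs of libraries (-0.18 to 0.27, median 0.043), against 4 of 36 pairs with other numbers (median -0.021). By the median, same-numbered libraries were thus somewhat more alike, and these values do not settle whether the numbers mark a pairing. The main fit did not pair libraries by number. Calls lost or gained without a library come from that fit and take no account of the numbers. The other replicate 1 libraries differed from replicates 2 and 3. In them, 20.3 to 21.8% of low genes lay close to their commonest ratio to control replicate 1, against 6.09 to 7.37% elsewhere. What sets them apart was not tested. With the replicate block, the counts of called genes were 1059, 365, 260, 721 and 1158 in the order above. Of the 72 related genes, it called 14, 9, 8, 11 and 11, S1pr4 among them in Zmiz1 against control (adjusted p = 0.0299) and Notch1+Zmiz1 against Zmiz1 (0.045). The block kept every call of the main fit among these genes, also those lost without single libraries in the fit with no block. Of the results for single genes and lists under an alternative, 2198 were unchanged, 215 weaker, 35 stronger and 36 moved. For tested genes, unchanged means the same direction and side of the threshold, weaker a lost call and stronger a gained one. Ccr8, Ccr9 and Ccr7 had no threshold, so unchanged means a shift within the replicate spread. Lists were compared by their number of called genes. Moved results went beyond that spread or, uncalled, changed sign. The limits are 3 libraries a group, unknown read totals, FPKM of genes near 0, and a possible unstranded overlap of Ccr9 and Lztfl1.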

Other observations

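Among marker genes of T helper subsets, listed to describe the line, Il12rb2, the signaling chain of the interleukin 12 receptor and a Th1 marker, stood highest where both vectors were present. It had 49.95, 51.4 and 54.6 FPKM in Notch1+Zmiz1 libraries, 41.0, 41.1 and 40.1 FPKM in Notch1 libraries, 42.3, 39.7 and 43.6 FPKM in Zmiz1 libraries and 28.8, 30.0 and 30.3 FPKM in control libraries. It rose in Notch1 against control (0.44 in log2(FPKM + 1), limma adjusted p = 0.000829) and in Zmiz1 against control (0.48, adjusted p = 0.000955), and both calls held without any single library. It also rose in Notch1+Zmiz1 against Notch1 (0.34, adjusted p = 0.00878) and against Zmiz1 (0.30, adjusted p = 0.00996), and both of these were lost without Notch1+Zmiz1 replicate 3 (adjusted p of 0.0518 and 0.0565) and in a fit of the compared groups alone. Ifng, Il13 and Il17a, the cytokines of Th1, Th2 and Th17 cells, were listed at 0 in every library. Of the regulatory T cell markers, Ctla4 (81.7 to 144.7 FPKM) and Tnfrsf18 (4.33 to 7.96 FPKM) were not called, and Foxp3 stayed at or under 0.0649 FPKM.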
